A study of Mus musculus with 4 samples.

Results

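Never cut sites are CCGG positions on the autosomes that gave many tags when mouse embryonic stem cell DNA was cut with MspI, but not a single tag when it was cut with HpaII. They were chosen by their tag counts: at least 10 tags in each of 2 MspI libraries and 0 tags in both HpaII libraries. Of 216294 autosomal sites that met this MspI minimum, called covered sites, the choice found 10678, or 4.94% (95% Clopper-Pearson interval 4.85 to 5.03). There were 1594137 CCGG positions in all. The other 205616 covered sites had HpaII tags in at least 1 library and serve as the comparison. "Never cut" means that no tag was seen at this depth, not that HpaII never cut there.

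The libraries came from MC1-ZE7 cells, a line of strain MC1 (129S6/SvEvTac) at passage 31 that carries a reporter, pZscan4c-Emerald, in which the Zscan4c promoter drives the fluorescent protein Emerald. Emerald-high cells and Emerald-negative cells were sorted by fluorescence from cultures grown without feeder cells in medium with serum and leukemia inhibitory factor, so both fractions share the line, the reporter and the culture conditions. Each fraction gave 1 HpaII library and 1 MspI library. With 1 library for each combination there is no replicate and no test between the fractions, and intervals below cover counting error only.

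Methylation of the cytosine in a CG pair is the main covalent mark of mammalian DNA. Most CG pairs away from CpG islands are methylated, islands at promoters are mostly free of it, and the mark is dense over transposons and other repeats. HpaII is blocked by methylation of the central CG of CCGG, and MspI cuts through it, so a site with MspI tags and no HpaII tag has the pattern of a methylated site. Zscan4 genes are active in the early embryo and, at a given time, in a small part of a stem cell culture.

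Emerald-high cells gave 5662614 HpaII and 9372711 MspI tags in all, and Emerald-negative cells 9535691 HpaII and 9307616 MspI tags. Ratios of tags are given after scaling to these totals, so each is relative to the average of its library. The base sequence around the sites and the genes they lie in were not analysed here, since no sequence or annotation of the files' build, mm9, was used.

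The never cut sites had few MspI tags for covered sites. In Emerald-high cells their MspI count ran from 10 to 92 with a median of 13, against a median of 15 at covered sites with HpaII tags. In Emerald-negative cells it ran from 10 to 104 with a median of 14, against 15. Together they held 156491 MspI tags in the Emerald-high and 159417 in the Emerald-negative fraction, which is 1.67% and 1.71% of those libraries. The lower counts follow in part from the choice, because a site with more tags in all has more chance to give at least 1 HpaII tag. The MspI libraries gave these sites like counts: 83 of the 10678 (0.777%) were over 2-fold above in Emerald-high cells, against 1.41% of all covered sites, and 183 (1.71%) were over 2-fold below, against 2.15%. The median log2 difference was -0.01 for both sets of sites.

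**Figure D1:**
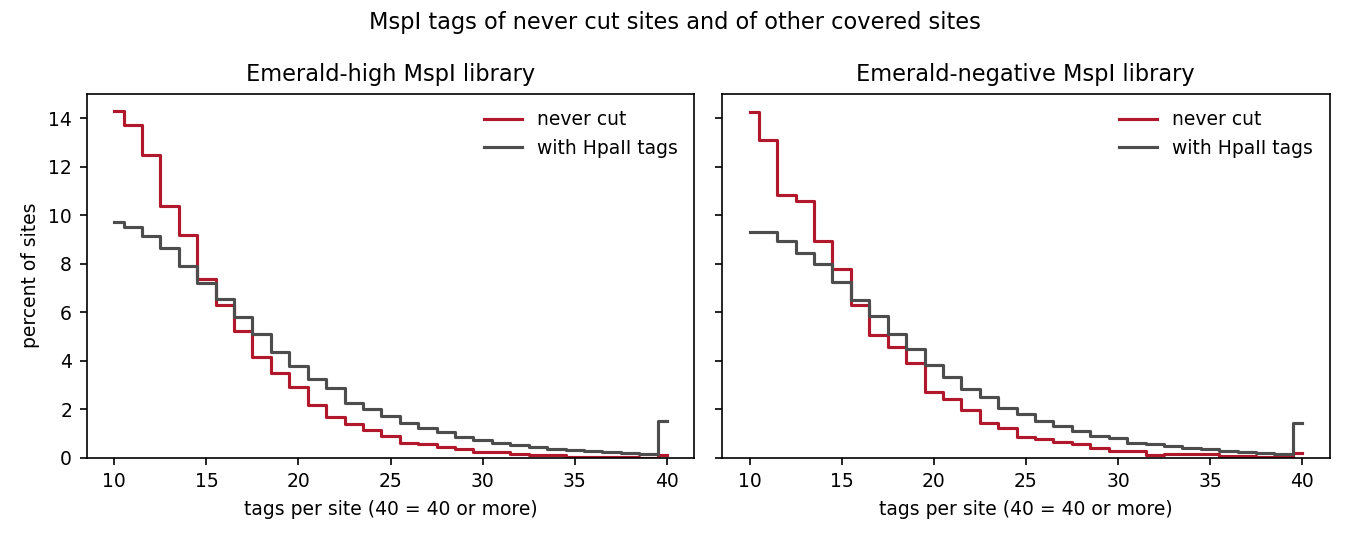
Distribution of MspI tags per site (x axis, tags; y axis, percent of sites) in the Emerald-high library (left) and the Emerald-negative library (right), for the 10678 never cut sites and the 205616 covered sites with HpaII tags. Never cut sites are more frequent at the lowest counts in both libraries, with medians of 13 and 14 against 15 and 15.

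The share of sites never cut fell as coverage rose. With the lower of the 2 MspI counts at 10 to 14, 8180 of 134955 sites (6.06%) were never cut. It was 3.78% at 15 to 19 tags, 2.20% at 20 to 29, 0.529% at 30 to 49 (24 sites), and 0.345% at 50 or more (3 of 869 sites, interval 0.0713 to 1.01). Most members therefore lie close to the coverage limit. Just outside it, 3573 uncut autosomal sites had a lower MspI count of 9 to under 10, beside 2726 uncut sites from 10 to under 11. Just outside the HpaII limit, 14924 covered sites had exactly 1 HpaII tag in both libraries together and 255 had a fraction of a tag.

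A count of 0 leaves room for some cutting. If 3 tags are taken as the most that a count of 0 allows, a member with the median MspI count could have a scaled HpaII/MspI ratio of up to 0.382 in the Emerald-high and 0.209 in the Emerald-negative fraction. For scale, dense sites, defined as those with at least 10 CCGG positions in a window of 500 bp to each side, as in CpG islands, had ratios of 3.36 and 5.54 as a class. The limits are 11.4% and 3.78% of those ratios. At the largest member count they come down to 1.61% and 0.508%. Dense sites are a highly cut class, however, and ordinary covered sites lie much nearer to the limit of 3 tags. Covered sites with HpaII tags had medians of 5 HpaII and 15 MspI tags in the Emerald-high fraction. In the Emerald-negative fraction the medians were 4 and 15. A count of 0 in 1 library therefore sets a median member little apart from such sites.

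Of the 8 never cut sites with whole tags and the highest MspI counts, 5 lie on chromosome 8. A pair in the same cluster of CCGG positions leads the list. The site at position 125951477 had 0 HpaII and 92 MspI tags in the Emerald-high fraction, and 0 and 104 in the Emerald-negative fraction. The site at 125951888 had 0 and 91 tags in the Emerald-high fraction, and 0 and 73 in the Emerald-negative fraction. Both have 9 CCGG positions in the window, and they lie 132 and 86 bp from a dense site, far closer than most members. The nearest CCGG of the first, 51 bp away, was itself almost uncut, with 1 HpaII and 72 MspI tags in the Emerald-high and 2 and 83 in the Emerald-negative fraction. That of the second, 77 bp away, had 0 tags in every library, so nothing was measured there. The third site, at 114522810, had 67 MspI tags in the Emerald-high and 68 in the Emerald-negative fraction. At these 3 sites the ratio allowed by a count of 0 is at most 0.0741 in the Emerald-high and 0.0431 in the Emerald-negative fraction.

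The next 5 sites stand apart from each other. They lie on chromosome 8 at 130487309 and 25392992, on chromosome 13 at 119514815, on chromosome 7 at 82361719 and on chromosome 4 at 35229344. Their MspI counts were 38, 45, 38, 38 and 51 tags in the Emerald-high fraction, and 45, 37, 42, 40 and 35 in the Emerald-negative fraction. All but the first of these are isolated, with no other CCGG within 500 bp. The nearest CCGG of the chromosome 7 site, 4502 bp away, was cut in both fractions, with 9 HpaII tags in the Emerald-high and 10 in the Emerald-negative fraction. That of the chromosome 4 site had 7 and 5 HpaII tags. On chromosome 8 the neighbours had 5 and 1 HpaII tags (site at 130487309) and 1 and 0 (site at 25392992). The neighbour of the chromosome 13 site had 0 HpaII tags in both, but only 4 and 2 MspI tags.

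Chromosome 8 has more MspI tags than the other autosomes, which touches this list. Its mean per site was 7.55 in the Emerald-high and 7.53 in the Emerald-negative fraction, against 4.64 to 5.94 and 4.67 to 5.82 on the other 18, once the 0.1% of sites with most MspI tags were left out. It had 25.5% of its sites covered, against 11.98% to 15.1% elsewhere. Its share of covered sites that were never cut, 4.33%, lay within the range of the other autosomes, 4.11% (chromosome 11) to 5.90% (chromosome 13). The part of chromosome 8 coverage in the list of most tagged members was not tested. Over the 19 autosomes the share was 4.98% ± 0.50 (mean ± SD over chromosomes of the same libraries).

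Never cut sites lay more often in small groups of CCGG positions than the other covered sites, and less often alone or in dense clusters. Those with 2 to 4 CCGG positions within 500 bp, the site included, made up 62.2% of never cut sites and 49.4% of covered sites with HpaII tags. Isolated sites made up 32.7% (31.8 to 33.6) and 41.4% (41.2 to 41.6), a difference of -8.65 percentage points (-9.56 to -7.73). Sites with 5 to 9 positions made up 4.85% and 7.39%, and dense sites 0.197% (21 sites) and 1.80%. The isolated share was lower among never cut sites on 19 of 19 autosomes, by -8.81 ± 3.26 points.

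Read the other way, 6.14% of covered sites with 2 to 4 positions were never cut (5.99 to 6.28), against 3.95% of isolated sites, 3.30% of those with 5 to 9 and 0.563% of dense sites (0.349 to 0.860). Sites with 2 to 4 positions had the highest share at like coverage where coverage was low, and could not be told from those with 5 to 9 above that. At a lower MspI count of 10 to 14 the shares were 7.44%, 5.05%, 3.64% and 0.538%. At 15 to 19 they were 4.83%, 2.76%, 2.96% and 0.677%, where isolated sites and those with 5 to 9 positions had overlapping intervals (2.55 to 2.99 and 2.41 to 3.59). At 20 to 29 tags the share was 2.84% (2.56 to 3.15) with 2 to 4 positions and 2.60% (1.88 to 3.49) with 5 to 9, which overlap. At 50 or more it was 1 of 380 sites with 2 to 4 positions and 2 of 148 with 5 to 9, too few to rank.

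The distance to the nearest CCGG showed where the peak lies. The share never cut was 5.12% with a neighbour at 1 to 50 bp, 7.13% (6.73 to 7.55) at 151 to 200 bp, 4.57% at 301 to 500 bp and 2.06% (1.66 to 2.52) beyond 5000 bp. Among sites with a lower MspI count of 10 to 14 the peak was in the same class, at 8.88% (8.31 to 9.47), against 2.88% beyond 5000 bp. The median distance to the nearest CCGG was 221 bp for never cut sites and 315 bp for covered sites with HpaII tags. The share with a neighbour within 100 bp was less telling, 26.2% against 23.6%. The difference of 2.56 points (1.72 to 3.43) was positive on 16 of 19 autosomes and turned to -2.67 points when coverage of 5 MspI tags was enough. At like coverage, with 10 to 14 MspI tags in each library, it was 0.18 points (-1.12 to 1.53), so no difference could be told there.

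Dense sites had few never cut sites around them. Within 10 kb of a dense site lay 5.79% (5.35 to 6.25) of never cut sites and 13.0% (12.8 to 13.1) of covered sites with HpaII tags, a difference of -7.17 points (-7.62 to -6.69). It was negative on 19 of 19 autosomes, with a mean of -6.85 ± 2.21. Median distances to a dense site were 87860 and 67519 bp. The share never cut was 0.563% at dense sites themselves, 0.648% at 1 to 500 bp from one and 1.31% at 501 to 2000 bp. It was 3.06% at 2001 to 5000 bp and 6.02% (5.79 to 6.25) at 100001 to 200000 bp, and lower again beyond 500000 bp, at 4.85% (4.39 to 5.34).

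The same course held for isolated sites, whose own density is fixed. Their share never cut was 0.895% (0.361 to 1.84) at 501 to 2000 bp from a dense site, 2.41% at 2001 to 5000 bp and 4.404% (4.12 to 4.71) at 100001 to 200000 bp. At the scale of a megabase, the share was highest in regions of middling CCGG content. It was 3.90% where the 1 Mb bin held 22 to 477 CCGG positions, 5.95% (5.71 to 6.20) at 615 to 742, and 3.83% at 1096 to 2104. Among isolated sites the same classes gave 2.94%, 4.81% and 2.85%.

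**Figure D2:**
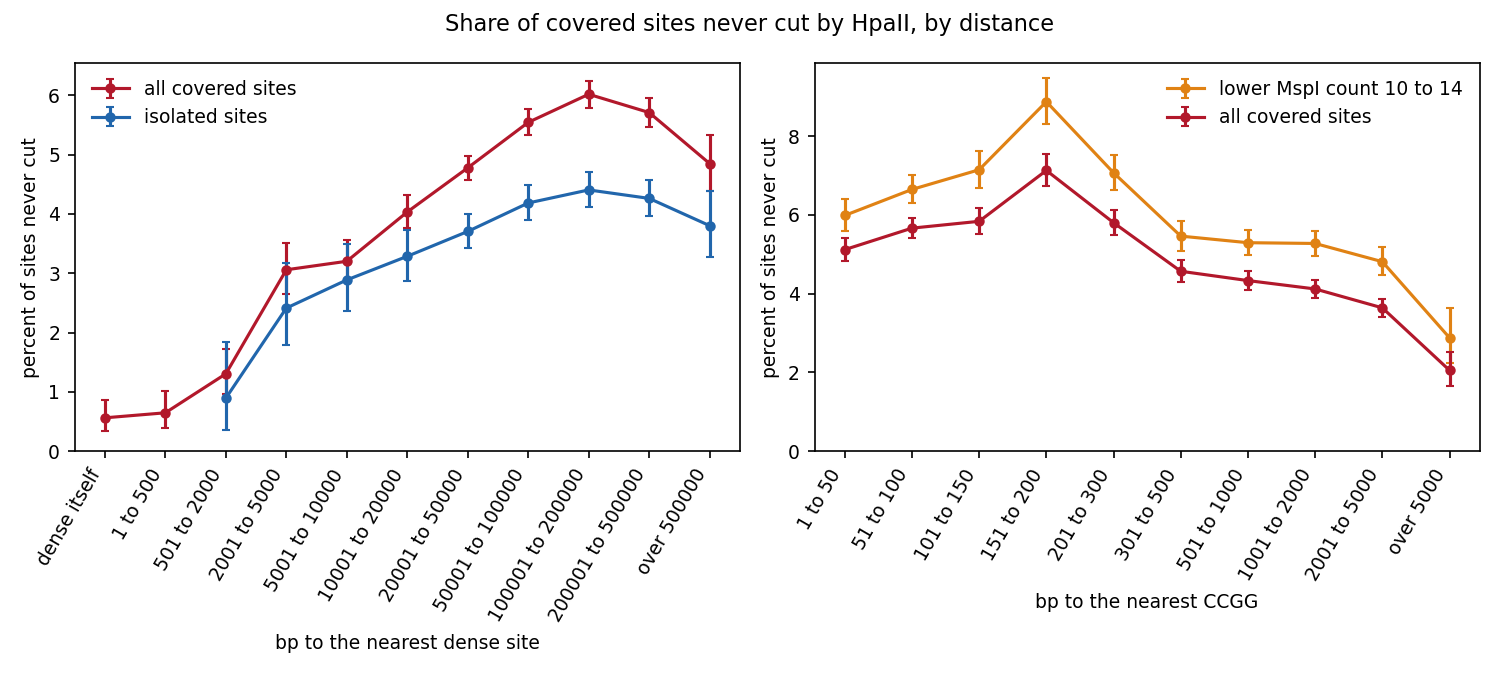
Percent of covered autosomal sites never cut (y axis) by bp to the nearest dense site (left, all covered and isolated sites) and by bp to the nearest CCGG (right, all covered sites and those with a lower MspI count of 10 to 14). Bars are 95% Clopper-Pearson intervals. The share rises from 0.563% at dense sites to 6.02% at 100001 to 200000 bp, and peaks at 7.13% with a neighbour at 151 to 200 bp.

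The number of HpaII tags places the never cut sites at 1 end of a course that turns. Isolated sites made up 32.7% of sites with 0 HpaII tags, 37.3% with up to 1, 42.0% with over 1 to 3, and 45.5% with over 3 to 7. They made up 47.9% with over 7 to 15 tags, 47.3% with over 15 to 31, and 26.1% with over 31. Never cut sites and the most cut sites thus both had a low isolated share, but different surroundings. At the most cut end 21.5% of sites had 5 to 9 CCGG positions and 8.26% were dense, against 4.85% and 0.197% of never cut sites, and 30.6% lay within 10 kb of a dense site. The share within 10 kb rose at each step of the tag classes, from 5.79% and 6.18% at the low end.

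Sites without HpaII tags in only 1 fraction were isolated more often than those without them in both. HpaII tags were missing in Emerald-high cells only at 10520 sites and in Emerald-negative cells only at 23217 sites, although the Emerald-negative HpaII library was the deeper. Their isolated shares were 38.4% and 41.6%, against 32.7% for sites missing in both and 41.5% for sites with HpaII tags in both fractions. Within 10 kb of a dense site lay 7.05% and 6.34% of them, against 5.79%. HpaII tags in both fractions were found at 171879 sites, of which 14.2% lay within 10 kb of a dense site.

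Tags shared among positions were rare at never cut sites. A fraction of a tag in at least 1 MspI library, which arises where 1 tag is split over more than 1 position, was found at 116 of 10678 never cut sites, or 1.09% (0.899 to 1.30), and at 10014 covered sites with HpaII tags, or 4.87% (4.78 to 4.96). The difference of -3.78 points (-3.99 to -3.55) was negative on 19 of 19 autosomes. Shared tags bear on the choice itself, because a position with copies elsewhere takes a fraction of an HpaII tag from any cut copy: of the 255 sites with a fraction of 1 HpaII tag, 221 also had fractional MspI tags. Single-copy and repeated never cut sequence can therefore not be compared by these shares. All MspI tags of both libraries came from only 1 of the 2 deposited parts of the count at 19.4% of never cut sites and 16.1% of the others. At a lower MspI count of 10 to 14 these were 21.0% and 18.2%, and at 20 to 29 they were 9.19% and 11.1%.

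A never cut site was followed by another more often than a cut site was. Along a chromosome, the next covered site was also never cut for 822 of 10677 never cut sites, or 7.70% (7.20 to 8.22), and for 4.79% (4.70 to 4.89) of covered sites with HpaII tags. The difference of 2.90 points (2.41 to 3.43) was positive on 19 of 19 autosomes, from 0.591 to 5.23 points, with the highest on chromosome 8. The choice of the first site did not use HpaII tags of the second, but the second was called never cut by the same rule. Tags split among positions can also tie such pairs together. Among sites with whole MspI tags only, the difference was 2.78 points (2.28 to 3.32).

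The closer the next covered site, the larger the gap. With the next covered site within 50 bp it was never cut for 28 of 140 never cut sites, or 20% (13.7 to 27.6), and for 3.30% (2.67 to 4.03) of the others. At 51 to 100 bp the shares were 20.8% (16.7 to 25.5) and 4.29%, at 101 to 500 bp 13.9% and 4.14%, and at 501 to 2000 bp 9.26% (7.72 to 10.998) and 4.51%. At 2001 to 10000 bp they were 6.79% (6.08 to 7.55) and 5.08%, and beyond 10000 bp 5.10% (4.39 to 5.88) and 4.79% (4.63 to 4.95), which overlap. The excess was thus detectable up to the class of 2001 to 10000 bp and not beyond. Within these classes the sets were not matched for coverage, CCGG density or distance to dense sites, and the part of these was not tested.

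**Figure D3:**
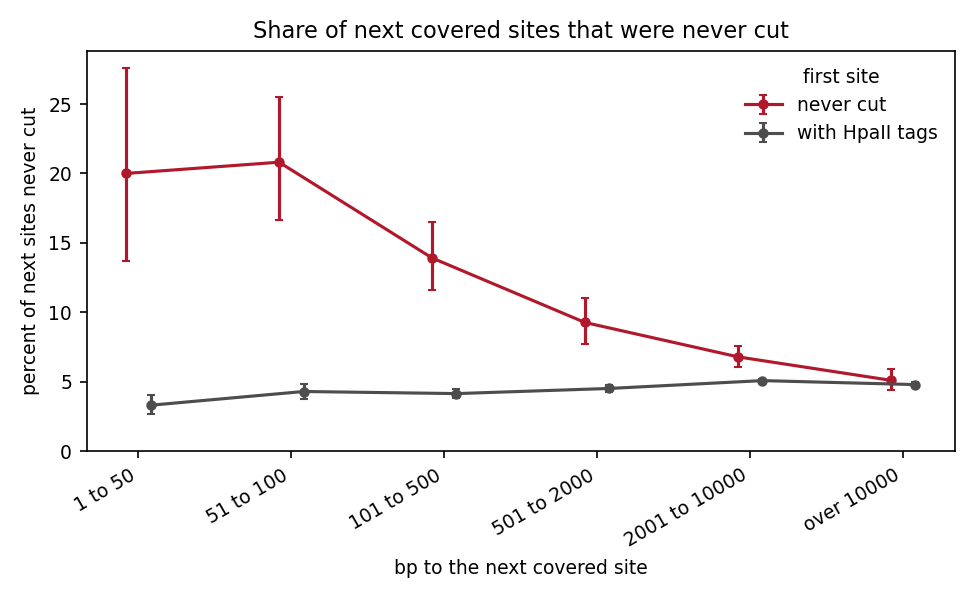
Percent of next covered sites that were never cut (y axis) by bp to that site (x axis), where the first site was never cut or had HpaII tags. Bars are 95% Clopper-Pearson intervals. The shares are 20% and 3.30% within 50 bp, and 5.10% and 4.79% beyond 10000 bp.

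Long stretches of never cut sites were few in number. Their number was not compared with what the share of never cut sites alone would give. Of the 10678 sites, 9118 had a covered site with HpaII tags, or a chromosome end, on both sides, 1328 formed 664 pairs, and 198 formed 66 runs of 3. There were 6 runs of 4 and 2 of 5. The first run of 5 lies on chromosome 18 at 5206547 to 5206783, with its sites exactly 59 bp apart and 0 HpaII tags at all 5 CCGG positions of its span. Its MspI tags were all fractional, 13.2 to 25.7 per site in the Emerald-high and 18.7 to 41.7 in the Emerald-negative fraction. Since the tags are shared, its sites are not separate observations. The run lies 284487 bp from a dense site.

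The other run of 5, on chromosome 3 at 51549263 to 51552973, had whole tags. Its sites had 11, 12, 13, 16 and 10 MspI tags in the Emerald-high and 13, 10, 16, 24 and 11 in the Emerald-negative fraction, with 0 HpaII tags at all 7 CCGG positions of the span in both. A run of 4 on chromosome 14 at 80255566 to 80256422 was equally free of HpaII tags at its 4 positions, with 56 MspI tags in the Emerald-high and 48 in the Emerald-negative fraction. A pair of runs of 4 took in poorly covered sites that were cut. On chromosome 9 (32102879 to 32130596) the span held 23 CCGG positions with 15 HpaII tags in the Emerald-high and 11 in the Emerald-negative fraction. On chromosome 5 (150263452 to 150273017) it held 14 positions with 17 and 5.

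Megabases differed in their share more than counting error gives. In 1693 bins of 1 Mb with at least 50 covered sites, the median share never cut was 4.84% (quartiles 3.26 and 7.14), and the variance between bins was 1.79 times the binomial one. The highest share was 16.9% (11 of 65 sites, 8.76 to 28.3) on chromosome 11 at 89000001 to 90000000. The next were 16.4% on chromosome 13 at 102000001 to 103000000, 16.3% (20 of 123, 10.2 to 24.0) on chromosome 2 at 76000001 to 77000000, 15.3% on chromosome 18 at 84000001 to 85000000 and 15.1% on chromosome 13 at 36000001 to 37000000. These bins held 490 to 742 CCGG positions. Over all bins with a covered site, also those with fewer than 50, the range was 22 to 2104.

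At the low end, 56 bins held no never cut site. The best covered of them lie on chromosome 15 at 102000001 to 103000000 and on chromosome 19 at 4000001 to 5000000, with 0 of 197 covered sites each. With 3 sites taken as the most that a count of 0 allows, the share could be up to 1.52% (Clopper-Pearson upper limit 1.86%). The bin on chromosome 7 at 26000001 to 27000000 had 0 of 149, which allows up to 2.01% in the same way (Clopper-Pearson 2.45%). They held 1254, 1238 and 1046 CCGG positions. Since the bins were ranked by this share, their values are a description.

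The nearest CCGG of a never cut site was itself little cut. Tags were summed over the nearest CCGG position of each site, whatever its coverage, each position counted once: 10635 neighbours of never cut sites and 196546 neighbours of covered sites with HpaII tags. For most neighbours the choice of sites did not use these tags, but 19.6% and 20.3% of the neighbours of the 2 sets were covered sites, whose HpaII tags the choice had used, and 327 and 1797 were never cut sites themselves. In Emerald-high cells the neighbours of never cut sites held 18340 HpaII and 77330 MspI tags, a scaled log2 HpaII/MspI of -1.35 (-1.37 to -1.33), against -0.27 for neighbours of the others. In Emerald-negative cells they held 20229 and 74943 tags, a value of -1.92 (-1.95 to -1.90), against -0.30. MspI tags were present at 88.4% and 87.1% of neighbours of the 2 sets, so the neighbours were covered alike, and at least 1 HpaII tag at 63.4% (62.5 to 64.3) and 76.0% (75.8 to 76.2).

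Neighbours that were not covered sites, whose HpaII tags played no part in the choice, showed the same order. The 8547 such neighbours of never cut sites stood at -1.17 (-1.20 to -1.14) in Emerald-high cells, against 0.19 for the 156586 of the others. In Emerald-negative cells they stood at -1.71 (-1.74 to -1.68), against 0.21. The difference was below 0 on 19 of 19 autosomes in each fraction. This repeat was added after the data were seen.

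A few positions with piled-up tags pull the comparison values down. Without the 0.1% of positions with most MspI tags, neighbours of never cut sites stood at -1.34 in the Emerald-high and -1.93 in the Emerald-negative fraction, and those of the others at -0.03 and -0.09. The difference between the sets was then below 0 on 19 of 19 autosomes, -1.29 ± 0.16 in the Emerald-high and -1.81 ± 0.21 in the Emerald-negative fraction. With the piled-up positions it was below 0 on 18 of 19 in each fraction. The values by distance, and those far from dense sites, leave these positions out.

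The gap was widest at close neighbours. In Emerald-high cells, neighbours at 1 to 50 bp stood at -1.91 beside never cut sites and at 0.37 beside the others. At 51 to 100 bp the values were -2.07 and 0.11, at 101 to 200 bp -2.02 and -0.12, and at 201 to 500 bp -1.26 and -0.12. At 501 to 2000 bp they were -0.47 and -0.08, and beyond 2000 bp -0.52 (-0.59 to -0.46) and -0.39 (-0.41 to -0.38). In Emerald-negative cells the values were -2.72 and 0.62 at 1 to 50 bp, -2.63 and -0.10 at 101 to 200 bp, and -1.04 (-1.10 to -0.98) and -0.84 (-0.85 to -0.83) beyond 2000 bp. The 2 sets drew together with distance but did not meet.

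Nearness to CpG-island-like clusters is shared by a site and its neighbour, so the sums were repeated over sites more than 10 kb from any dense site. Neighbours of the 10060 never cut sites there stood at -1.37 in the Emerald-high and -1.96 in the Emerald-negative fraction, and those of the 178966 others at -0.24 and -0.42. Neighbours of the 14025 such sites with exactly 1 HpaII tag stood at -1.18 and -1.75, between the sets and nearer to the never cut sites.

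Relative HpaII cutting around never cut sites was higher in Emerald-high than in Emerald-negative cells. Over all their neighbours, piled-up positions included, the log2 HpaII/MspI in Emerald-high minus that in Emerald-negative cells was 0.58 (0.54 to 0.61), against 0.03 (0.026 to 0.035) over the neighbours of covered sites with HpaII tags. The HpaII libraries alone differed by 0.61 and the MspI libraries by 0.04 around never cut sites. The value was above 0 on 19 of 19 autosomes, from 0.41 to 0.83, and exceeded that of the other neighbours on 19 of 19. Over neighbours that were not covered sites it was 0.54 (0.50 to 0.58), against -0.02. The value of 0.03 averages unlike surroundings: it was 0.37 beside isolated sites with HpaII tags and -0.69 beside dense ones. Beside isolated never cut sites the contrast was 0.53 (0.48 to 0.59), so the sets were closer there. More than 10 kb from any dense site, without piled-up positions, it was 0.60 (0.56 to 0.63) for never cut sites and 0.17 for the others. Each such value depends on the scaling to library totals: scaled to dense sites, the contrast around never cut sites was 1.30 (1.26 to 1.33). That scaling shifts the neighbours of both sets by the same amount, so the gap between the sets does not change with it. No replicate gives the spread between sorts, and the cause was not tested.

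The contrast between the sets was largest for close neighbours. Without piled-up positions, Emerald-high minus Emerald-negative was 0.82 (0.69 to 0.94) at 1 to 50 bp from never cut sites and -0.25 at 1 to 50 bp from the others. At 101 to 200 bp the values were 0.61 and -0.02, and beyond 2000 bp 0.52 (0.43 to 0.61) and 0.45 (0.43 to 0.46). With piled-up positions included, neighbours of sites with HpaII tags missing in Emerald-high cells only stood at 0.50 (0.47 to 0.53), and those missing in Emerald-negative cells only at 0.56 (0.54 to 0.58). Neighbours of sites with HpaII tags in both fractions stood at -0.00 (-0.01 to 0.00). By HpaII tags of the site itself, the contrast at the neighbour, again with these positions, was 0.58 at 0 tags, 0.47 at over 3 to 7, 0.18 at over 15 to 31 and -0.24 at over 31.

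**Figure D4:**
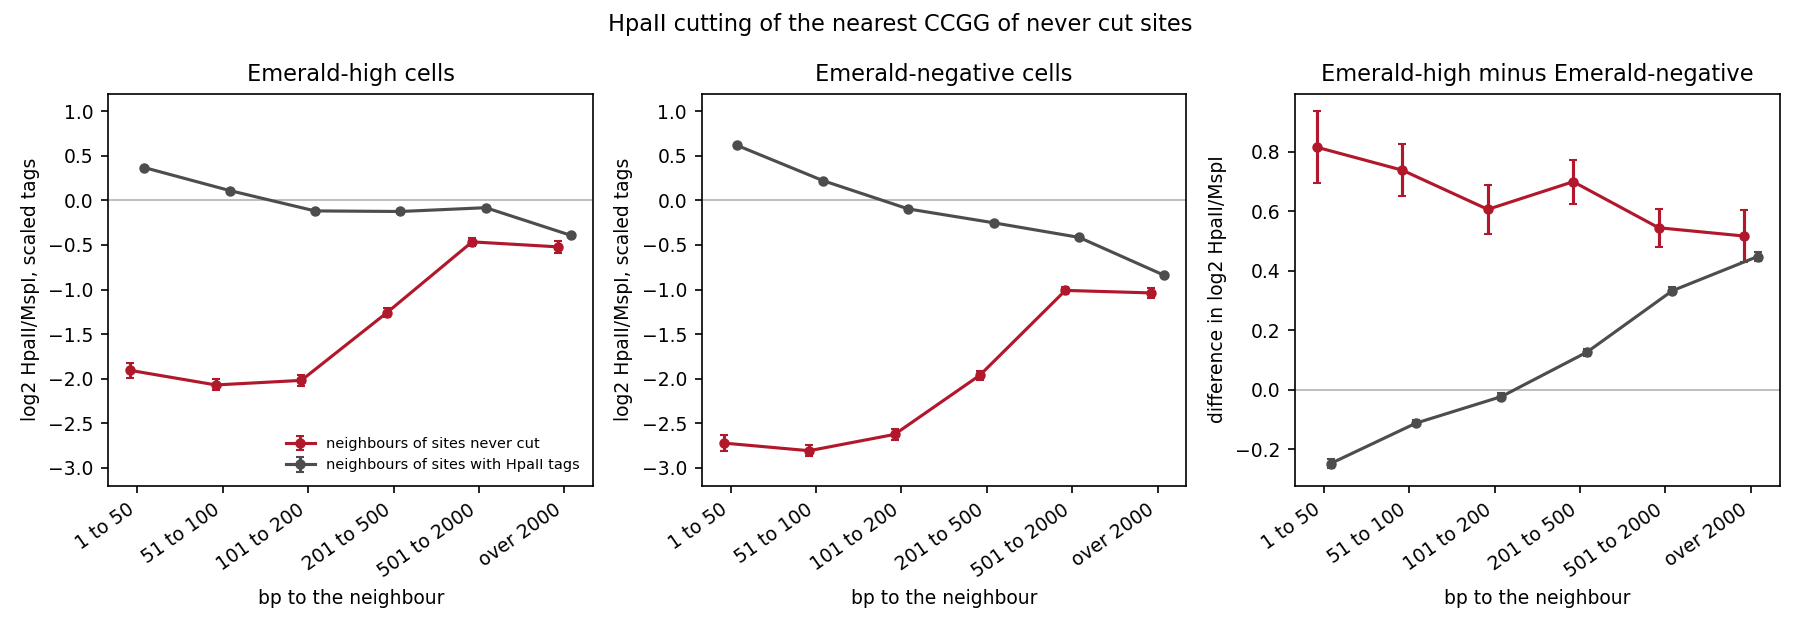
Scaled log2 HpaII/MspI of the nearest CCGG of never cut sites and of covered sites with HpaII tags, by bp to that neighbour, in Emerald-high cells (left), Emerald-negative cells (middle), and as the difference Emerald-high minus Emerald-negative (right), without the 0.1% of positions with most MspI tags. Bars are 95% Poisson intervals. Neighbours within 200 bp of never cut sites lie near or below -1.91 in Emerald-high cells, and the difference at 1 to 50 bp is 0.82 against -0.25.

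The 21 dense never cut sites, 0.197% of all never cut sites, were looked at one by one after their count was seen. They lie on 11 chromosomes in 13 places, 8 of them within 7285 bp on chromosome 12 (5057129 to 5064414). Their windows were little cut as a whole. The other CCGG positions within 500 bp of the 21 sites held 348 HpaII and 3608 MspI tags in the Emerald-high and 254 and 3519 in the Emerald-negative fraction, a log2 HpaII/MspI of -2.65 and -3.83. Around the 3707 covered dense sites with HpaII tags the values were 1.76 and 2.47. Without the group on chromosome 12 the 13 remaining sites gave -1.75 and -2.42.

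The windows of the group on chromosome 12 were low in both HpaII libraries. The site at 5063456 had 26 CCGG positions in its window, and 26 and 22 MspI tags of its own in Emerald-high and Emerald-negative cells. Its window held 49 HpaII and 813.85 MspI tags in the Emerald-high and 19.5 and 861.65 in the Emerald-negative fraction. MspI sums were fractional in all windows of the group, so some of their tags are shared among positions. The windows also overlap and can hold other never cut sites of the group, whose 0 HpaII tags the choice had used. That of the site at 5063456 holds the sites at 5063425 and 5063612. These windows are therefore not separate observations. By contrast, the site on chromosome 4 at 62592944, with 14 and 25 MspI tags, had 13 other CCGG positions in its window without a tag in any library, so nothing around it was measured. The window with the highest scaled log2 HpaII/MspI in Emerald-high cells was that of the site on chromosome 1 at 158381660, at -0.81, with -1.73 in Emerald-negative cells. In Emerald-negative cells the highest was that of the site on chromosome 8 at 3793926, at -1.22, with -2.07 in Emerald-high cells. Both lay below the values around dense sites with HpaII tags.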

How the data were processed

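The deposited HELP tagging libraries, 1 per enzyme (HpaII, MspI) and sorted fraction, were used. Per the labels' protocols, tags next to each cut were released with EcoP15I, transcribed in vitro, amplified and sequenced. The deposited files hold estimated counts of tags per CCGG position in 2 parts and their sum, not scaled to depth, in build mm9 per the submitters' processing notes. Neither the aligner nor the rule that divides tags matching more than 1 position is given in any source used here. Totals per library stand in the report. Tags have no molecular identifiers, so copies made in amplification count separately.

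Sites were chosen on the sum. Counts were not rounded. The 2 parts' meaning is not given. CCGG density, spacing and distance to dense sites were computed from the listed positions. A count was called fractional when over 0.01 tag from a whole number. Shares have 95% Clopper-Pearson intervals, their differences Newcombe intervals, and log2 ratios of summed tags Poisson intervals with the normal approximation. No test was made, since each group had 1 library. Named were the 8 members with whole tags and the highest lower MspI count, the 5 longest runs of members, and the 5 bins of 1 Mb with the highest and 3 with the lowest share (ties by more covered sites). The members, measures and rules were chosen with earlier results of these data known. Alternatives were other MspI minima, like depth, whole tags, removal of piled-up sites, sex chromosomes, 1 HpaII tag allowed, other windows and dense-site scaling. Leaving out chromosome 8, neighbours that are not covered sites and the sums over dense never cut sites were added after seeing the data. Scripts were tested on simulated data. Software was scipy 1.17.1, numpy 2.4.6 and pandas 2.3.3 under Python 3.11.15, with matplotlib 3.10.9 for plots.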

Additional observations from a re-analysis of the deposited data

Results flagged for a closer look

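Chromosome X was outside the choice of sites and entered no comparison. Of 2322 covered X sites, 105 had no HpaII tag in either fraction, or 4.52% (3.71 to 5.45), within the range of the autosomes. Of these 105 sites, 50 were isolated, or 47.6% (37.8 to 57.6), against 48.1% of X sites with HpaII tags. The interval is too wide to show or exclude on X a difference like the -8.65 points of the autosomes. On chromosome Y none of 81 covered sites was never cut, which allows up to 3.70% with 3 sites as the most that a count of 0 allows (Clopper-Pearson upper limit 4.45%).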

How the results depend on the processing

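Of 79 repeats under other settings, 33 lay within the interval of the main value, 45 moved beyond it and 1 reversed. The cause of these moves was not tested. With at least 5 MspI tags the share never cut was 8.38%, and never cut sites differed from the others by -4.61 percentage points for isolated sites, -9.07 within 10 kb of a dense site, 6.55 for a never cut next site and -2.63 for shared tags. The difference for a neighbour within 100 bp reversed to -2.67 points. Neighbours differed in log2 HpaII/MspI by -1.17 (Emerald-high) and -1.76 (Emerald-negative), against -1.08 and -1.62 in the main setting. With at least 20 MspI tags the share was 1.90% and the differences -14.2, -4.02, 1.21 and -7.90 points, with 8.10 for a close neighbour and -0.48 and -1.08 for neighbours. With 10 to 14 MspI tags in each library the share was 7.26%. The differences were -6.80 (isolated), -8.78 (near dense) and -2.36 (shared tags) points. For a close neighbour the difference was 0.183 points (-1.12 to 1.53). Neighbours then differed by -1.44 and -2.07, and the contrast between fractions around never cut sites was 0.64.

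With up to 1 HpaII tag allowed, the share was 11.95% and the differences -6.28 (isolated), 0.968 (close neighbour), 5.35 (next site) and -2.81 (shared tags) points, with -1.01 and -1.55 for neighbours. With whole tags only, the share was 5.12% and neighbours differed by -1.41 and -1.96. Without the most tagged 0.1% of sites (by MspI) they differed by -1.31 and -1.84, and shared tags by -3.46 points. Without chromosome 8, neighbours differed by -1.02 and -1.56. With neighbours that are not covered sites they differed by -1.36 and -1.92, and the contrast between fractions was 0.54. Windows of 1000 bp gave -7.02 (isolated) and -8.70 (near dense), and those of 250 bp -4.03 near dense sites. Scaled to dense sites, the contrast between fractions was 1.30. No paired analysis was possible because each group had 1 library. At the lowest coverage a count of 0 is weak evidence of a low ratio, so membership depends on depth.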
